A study of Homo sapiens with 2 samples.

Results

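Cells make retinoic acid from vitamin A, and 9 genes that carry out, sense or end this process were followed across the cell classes of blood-generating heart-forming organoids (BG-HFOs). The genes were *STRA6* (uptake), *ALDH1A1*, *ALDH1A2* and *ALDH1A3* (synthesis), *RARA*, *RARB* and *RARG* (receptors), and *CYP26A1* and *CYP26B1* (breakdown). They were chosen by name, and all 9 were found among the 36601 genes of the count matrices. A BG-HFO is a three-dimensional culture that forms myocardium, endothelium, mesenchyme and blood cells from human pluripotent stem cells.

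Both organoids, 32.7 and 33.10, came from the hES3 NKX2.5-eGFP line, a human embryonic stem cell line whose *NKX2.5* reporter marks cardiac cells, were collected on day 14, and received the same treatment. Each gave 1 droplet library, in which a unique molecular identifier (UMI) marks each captured transcript. There was 1 condition and 1 cell line, so comparisons were made between cell classes. With 2 organoids, p-values measure the spread between these organoids, and 1 line limits what they stand for. The culture medium carried a serum-free supplement, and its retinoid content was not analysed here.

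Retinol enters cells through the receptor STRA6, is oxidised to retinal by retinol dehydrogenases and then, irreversibly, to retinoic acid by the ALDH1A enzymes. Retinoic acid binds the receptors RARA, RARB and RARG, which sit on DNA with RXR partners and switch on their targets, and the CYP26 enzymes oxidise it for removal. In the embryo the pathway is known for patterning the inflow part of the heart, for signals from the epicardium, and for blood stem cell formation from endothelium.

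The libraries held 191152562 and 233818881 UMIs in 16866 and 19948 barcodes, and loading had aimed at 10000 cells per sample. A filter on genes and mitochondrial counts left 16792 and 19893 cells, the median barcode had 7842 and 8284.5 UMIs, and 100 barcode sequences occurred in both libraries. Cells were assigned to classes from UMIs of lineage genes that are not among the 9, which placed 58.2% and 60.7% of the cells. Cells with UMIs of several lineage lists, 23.5% and 23.7%, were left out of the comparisons. A further 18.4% and 15.6% reached no gate. Check genes numbered 3 per class and were not used for gating, except that the epicardial check gene *TCF21* is also in the stroma gate. All 3 were highest in their own class, in both organoids, for cardiomyocytes, endothelium, stroma, endoderm, erythroid cells (Ery), megakaryocytes (Mk) and macrophages. Arterial endothelium (AE) and venous endothelium (VE) were checked only against each other, and 3 of 3 genes were higher in their own class in both organoids. Of the epicardial check genes, *TCF21* and *BNC1* were higher in epicardial-type than in LUM-type stroma in both organoids. *UPK3B* went the other way, with 0 UMIs in epicardial-type stroma and a higher level in LUM-type stroma in organoid 32.7. The granulocytic list reached 2 of 3 in organoid 33.10. The fibroblast list (*POSTN*, *OGN*, *DPT*) reached 3 of 3 and 1 of 3 and summed to only 22 and 21 CPM in the *LUM* gate, so that gate is named LUM-type stroma. Cells gated on *MYB*, *SPN* and *PTPRC* (42 and 16 cells) did not have the highest *KIT*, *CD34* and *GATA2* levels (1 of 3 and 0 of 3), so they are called by their gate and not as progenitors.

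All levels are given on the counts-per-million scale (CPM), as a gene's UMIs relative to all UMIs of its class in 1 organoid. Captured transcripts of different genes are not compared with each other. Free RNA was not removed, so the level over all cells of a library is given as a reference. Counting intervals are exact at 95% and cover counting error only.

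*STRA6* (ENSG00000137868; GRCh38 chromosome 15, 74179466 to 74212267, minus strand) is the uptake receptor for retinol bound to its carrier RBP4. It was highest in stroma, next in erythroid cells and cardiomyocytes, and lowest in AE and VE. Epicardial-type stroma had 24.7 and 31.9 CPM in organoids 32.7 and 33.10, LUM-type stroma 23.4 and 21.9, and other stroma 26.1 and 29.8. Erythroid cells had 14.3 and 14.0 CPM and cardiomyocytes 12.1 and 11.5, against 11.4 and 12.0 over all cells. AE held 0.626 and 0.473 CPM (13 and 8 UMIs), and VE 0.605 and 0 CPM. The 3 stromal classes lay above every other class in both organoids, and epicardial-type stroma had 39.5 and 67.4 times the level of AE. Endoderm had 5.77 and 3.74 CPM, Mk 4.82 and 6.02 CPM, and macrophages 0.89 and 0.789 CPM.

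The share of cells with at least 1 *STRA6* UMI gave the same picture at equal depth. With every cell thinned to 3000 UMIs, 8.94% of epicardial-type cells of organoid 32.7 (16 of 179, interval 5.20 to 14.1%) and 7.19% of those of organoid 33.10 (20 of 278, interval 4.45 to 10.9%) held one. In VE, the lowest class, 0 of 361 and 0 of 336 thinned cells held one, with upper interval bounds of 1.02% and 1.09%. Unthinned shares were 28.2% and 29.4% in epicardial-type stroma and 0.824% and 0% in VE. Median depths were 13243 and 11237 UMIs in the former class and 12103.5 and 10710 in the latter.

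*ALDH1A1* (ENSG00000165092; chromosome 9, 72900671 to 73080442, minus strand) makes retinoic acid from retinal and is widely used as a marker of stem and progenitor cells. Among the gated classes it was highest in endoderm, with a lower level in erythroid cells and none found in epicardial-type or LUM-type stroma. Cells left out for several lineage lists held 32.1% and 63.1% of its UMIs in organoids 32.7 and 33.10, and are described below. Endoderm had 92.3 and 76.6 CPM (224 and 41 UMIs, from 157 and 23 cells), against 3.47 and 6.22 CPM over all cells. Erythroid cells followed with 8.32 and 9.1 CPM (93 and 186 UMIs). Endoderm was 11.1 and 8.42 times the erythroid level, and its range did not meet that of any other fitted class. The *MYB*, *SPN* and *PTPRC* gate had 25.9 and 14.3 CPM, all from 1 cell in each organoid. Granulocytic cells had 1.44 and 7.45 CPM, VE 3.83 and 1.95 CPM, Mk 1.49 and 2.5 CPM, and cardiomyocytes 0.0975 and 1.9 CPM. AE held 4 UMIs in each organoid (0.193 and 0.237 CPM). Epicardial-type and LUM-type stroma held 0 UMIs in both organoids. *RUNX1*+ endothelium, gated on the transcription factor that blood formation from endothelium needs, also held 0 UMIs, but the exact upper bounds of its small sums are 5.8 and 8.11 CPM.

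The signal was uneven within endoderm. At 3000 UMIs per cell, 16.4% of endoderm cells (22 of 134, interval 10.6 to 23.8%) and 25.0% (5 of 20, interval 8.66 to 49.1%) held an *ALDH1A1* UMI, and 36.3% and 43.5% did without thinning. In erythroid cells the thinned shares were 1.77% and 2.15%, and in epicardial-type stroma, among the lowest classes, 0 of 179 and 0 of 278 cells, with upper bounds of 2.04% and 1.32%. The median endoderm cell had 8921 and 14726 UMIs, and the median epicardial-type cell had the depths given above. The 16 endoderm cells with most *ALDH1A1* held 64.7% of the class's *ALDH1A1* UMIs in organoid 32.7, and the leading 3 cells held 51.2% in organoid 33.10.

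*ALDH1A2* (ENSG00000128918; chromosome 15, 57953424 to 58497866, minus strand) is the main retinoic acid-making enzyme of the early embryo and of the epicardium. Among the fitted classes it was highest in macrophages and not in stroma. Macrophages had 130 and 135 CPM (mean 132 ± 3.54, SD, n = 2), Mk 57.5 and 68.2 CPM, and granulocytic cells 60.8 and 64.7 CPM. These 3 blood classes lay above the other 10 fitted classes in both organoids. The *MYB*, *SPN* and *PTPRC* gate, which was not fitted, had 296 CPM in organoid 32.7 and 0 in organoid 33.10. Cardiomyocytes had 19.2 and 26.8 CPM, VE 18.4 and 21.4, and AE 12.6 and 13.4, against 29.2 and 29.9 CPM over all cells. Epicardial-type stroma had 13.3 and 5.64 CPM (36 and 23 UMIs), LUM-type stroma 8.7 and 9.06 CPM, and erythroid cells 3.13 and 7.73 CPM. The macrophage level was 9.77 and 23.9 times that of epicardial-type stroma, whose own value differed between the organoids.

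*ALDH1A2* was detected widely in macrophages, although the 47 and 23 cells with most of it held 61.1% and 55.3% of the class's *ALDH1A2* UMIs. At 3000 UMIs per cell, 25.6% of macrophages (105 of 410, interval 21.5 to 30.1%) and 27.0% (55 of 204, interval 21.0 to 33.6%) held a UMI, compared with 12.6% and 16.3% of Mk. Erythroid cells, the class with the lowest mean level, had 0.355% and 3.43%, although epicardial-type stroma was lower in organoid 33.10 (4.47% and 0.719%). The erythroid shares were taken at median depths of 15474 and 10007 UMIs against 14165 and 12960.5 in macrophages. Unthinned, the shares were 44.2% and 54.9% in macrophages and 5.33% and 7.37% in erythroid cells.

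Within blood classes *ALDH1A2* differed between subsets that were defined after its levels had been seen, so these values are descriptions. The macrophage gate does not part macrophages from monocytes. Of its 464 and 226 cells, 300 and 143 had at least 20 UMIs of *S100A8* and *S100A9*, calcium-binding proteins abundant in monocytes and neutrophils. These cells had 154 and 151 CPM of *ALDH1A2*, those with 5 to 19 UMIs 59.3 and 147, and those with fewer 81.6 and 60.3. Granulocytic cells on the neutrophil side (more UMIs of *MPO*, *AZU1*, *PRTN3* and *ELANE* than of *CLC*, *EPX* and *PRG2*) had 79.9 and 115 CPM, and those on the eosinophil side 24.2 and 38.4. Stroma split by *WT1*, a transcription factor of the epicardium, showed no gradient. *ALDH1A2* was 9.94, 9.86 and 9.97 CPM with 0, 1 and at least 2 *WT1* UMIs in organoid 32.7, and 5.98, 3.86 and 6.11 CPM in organoid 33.10.

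Some cells held UMIs of both *ALDH1A1* and *ALDH1A2*. Among cells with an *ALDH1A1* UMI, 65 of 242 (26.9%) in organoid 32.7 and 128 of 544 (23.5%) in organoid 33.10 also held *ALDH1A2*. Those were 2.86% and 3.94% of the cells with *ALDH1A2*, which numbered 2276 of 16792 and 3245 of 19893 cells. In endoderm, 21 of 40 and 2 of 3 cells with *ALDH1A2* also held *ALDH1A1*. Of the cells with both, 27 of 65 and 83 of 128 had several lineage lists, and no doublet caller was run. These counts were not taken at equal depth.

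*ALDH1A3* (ENSG00000184254; chromosome 15, 100877714 to 100916626, plus strand), the remaining enzyme of the group, was near the counting limit with 80 and 62 UMIs in all. Other stroma had 2.58 and 0.793 CPM from 37 and 11 UMIs, the highest class in organoid 32.7 but below endoderm (1.87 CPM, 1 UMI) and LUM-type stroma (1.43 CPM, 6 UMIs) in organoid 33.10. Stroma held 58.8% and 32.3% of its UMIs.

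**Figure D1:**
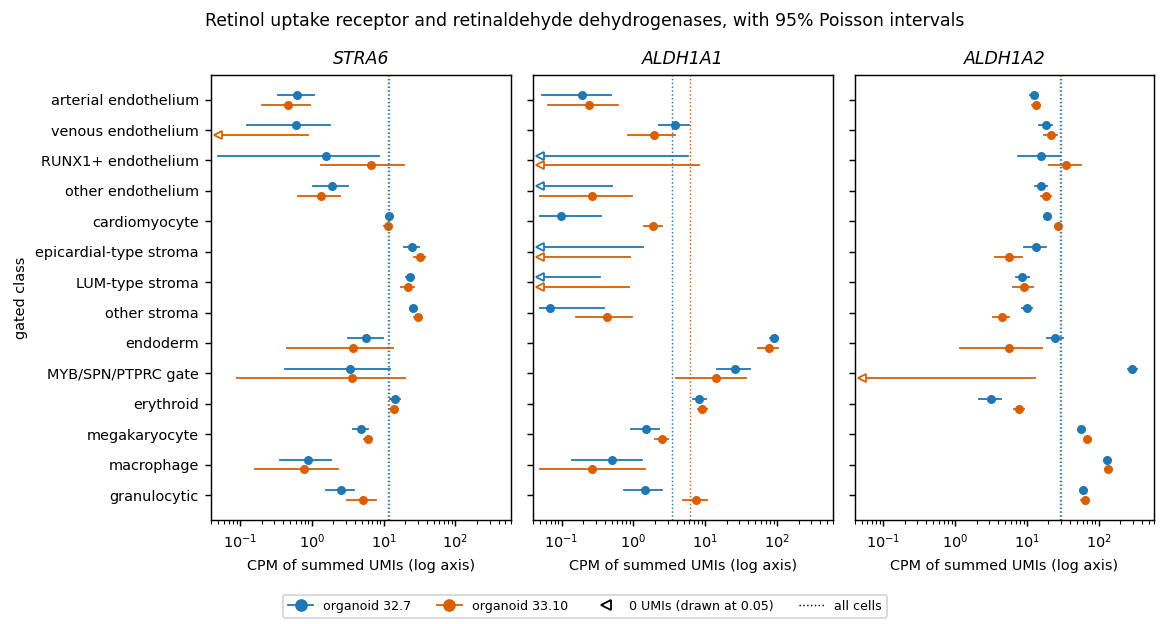
Levels of *STRA6*, *ALDH1A1* and *ALDH1A2* by cell class (CPM, log axis), with 1 point per organoid, bars for the exact 95% Poisson interval of the UMIs, triangles for classes with 0 UMIs and dotted lines for all cells. *ALDH1A2* lies at 130 and 135 CPM in macrophages and at 13.3 and 5.64 CPM in epicardial-type stroma, and *ALDH1A1* at 92.3 and 76.6 CPM in endoderm.

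*RARA* (ENSG00000131759; chromosome 17, 40309180 to 40357643, plus strand) is the most broadly expressed receptor of the family. It had 24.2 and 27.9 CPM in macrophages and 28.6 and 22.5 CPM in AE. Erythroid cells were the only fitted class that stood far below, at 2.59 and 2.89 CPM. Of the 12 neighbouring pairs in the order of *RARA* levels, 10 overlapped between organoids.

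*RARB* (ENSG00000077092; chromosome 3, 24687887 to 25597932, plus strand), a receptor whose own promoter is a classic retinoic acid target, was highest in cardiomyocytes. These had 31.8 and 33.6 CPM, 2.97 and 3.17 times the level over all cells. VE followed with 30.1 and 21.0 CPM, whereas AE had 4.48 and 5.56 CPM and macrophages 2.04 and 0.526 CPM. Endoderm had 9.89 and 28.0 CPM, too far apart between organoids for its place in the order to be read. At 3000 UMIs per cell, 8.05% and 9.66% of cardiomyocytes held a *RARB* UMI (intervals 6.71 to 9.55% and 8.31 to 11.1%), against 0 of 410 and 0 of 204 macrophages, the lowest class (upper bounds 0.896% and 1.79%). Unthinned, the shares were 20.6% and 26.1% of cardiomyocytes and 2.59% and 0.885% of macrophages, at median depths of 6835 and 9628 UMIs in cardiomyocytes.

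*RARG* (ENSG00000172819; chromosome 12, 53210567 to 53232980, minus strand), a receptor known from limb, skin and early mesoderm, was an endothelial gene. AE had 39.8 and 40.3 CPM (mean 40.0 ± 0.354, SD, n = 2), other endothelium 31.9 and 29.4, *RUNX1*+ endothelium 23.6 and 37.4, and VE 21.0 and 20.7. All 4 endothelial classes lay above every other fitted class in both organoids, and endothelium held 53.3% and 44.1% of all *RARG* UMIs with 14.9% and 12.8% of the cells. Cardiomyocytes had 4.97 and 4.28 CPM, so AE was 8.01 and 9.42 times higher. Erythroid cells had 0.805 and 0.734 CPM. At 3000 UMIs per cell, 13.0% and 11.8% of AE cells held a UMI, against 0.177% and 0.201% of erythroid cells, which with macrophages were the lowest, and the unthinned shares were 41.4% and 36.8% against 1.5% and 0.882%, at median depths of 13156 and 11118 UMIs in AE.

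**Figure D2:**
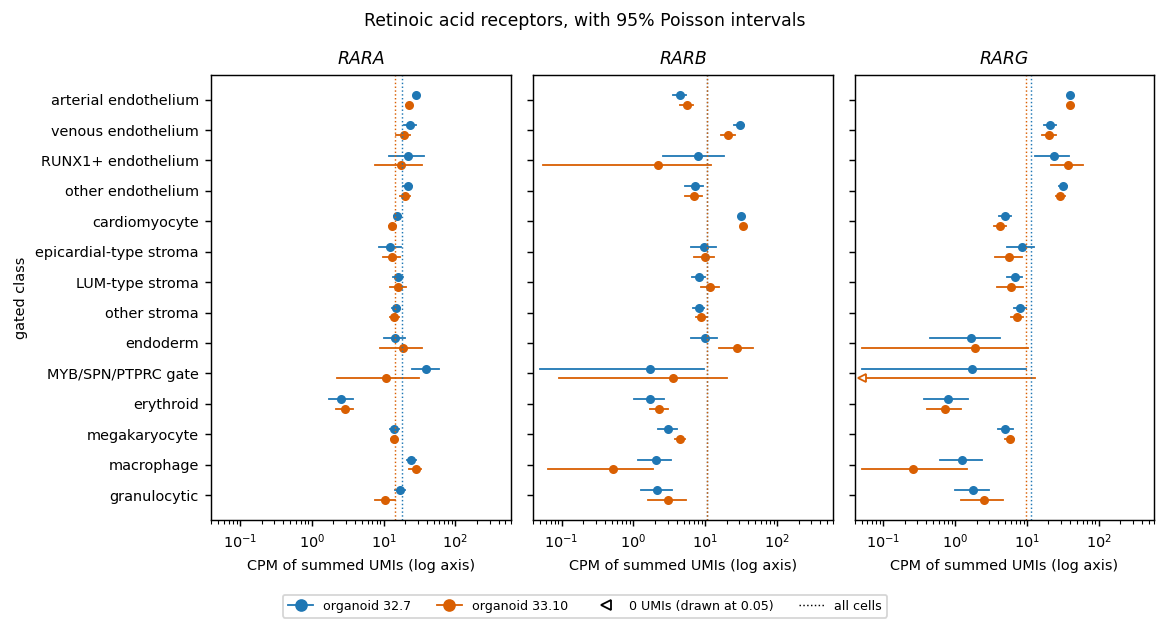
Levels of the receptors *RARA*, *RARB* and *RARG* by cell class (CPM), with 1 point per organoid and bars for the exact 95% Poisson interval. *RARG* has its 4 highest classes in endothelium, *RARB* its highest in cardiomyocytes at 31.8 and 33.6 CPM, and *RARA* is low only in erythroid cells.

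Transcripts of the breakdown enzymes were scarce. *CYP26A1* (ENSG00000095596; chromosome 10, 93073475 to 93077885, plus strand), which oxidises retinoic acid and is itself induced by it, had 20 and 21 UMIs in all cells (0.105 and 0.0908 CPM). Cardiomyocytes held 7 and 4 of these UMIs, and endoderm 4 and 0. *CYP26B1* (ENSG00000003137; chromosome 2, 72129238 to 72147862, minus strand), its relative in limb, hindbrain and gonad, had 40 and 39 UMIs (0.210 and 0.169 CPM). Endothelium held 37.5% of them in organoid 32.7, but the largest group in organoid 33.10 was cells with several lineage lists, at 38.5%. No order between classes could be read at these counts, and *CYP26A1* did not reach the count filter of the test.

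The known promoter elements of the pathway were looked up because *RARB* and *CYP26A1* are receptor targets. Retinoic acid receptors bind direct repeats of a half-site. The half-site AGGTCA, the form AGTTCA, the form GGGTCA and the form GGTTCA were searched on both strands, in any pairing, as repeats with 5 or 2 bases between them, in RefSeq promoters of GRCh38.p14 (250 bases before to 50 after each start). Of 20 promoters of the 9 genes, 2 held a repeat with 5 bases between (10% of them), against 31 of all 35116 promoters (0.0883%). A repeat with 2 bases between was in 0 of the 20, against 0.0399% of all. The 2 promoters were those of *RARB* and *CYP26A1*, looked up as known targets, so these shares are no test of enrichment. A single half-site was in 40% of the 20 and in 38.6% of all. Neither repeat was in the 34 promoters of other pathway genes or the 26 of response genes, of which 29.4% and 46.2% held a half-site. The 2 promoters are shown because they carry the repeats, with both half-sites in capitals. The first is at chr3:25428013-25428312 and the second at chr10:93073643-93073942, both on the plus strand, written 5′ to 3′.
RARB: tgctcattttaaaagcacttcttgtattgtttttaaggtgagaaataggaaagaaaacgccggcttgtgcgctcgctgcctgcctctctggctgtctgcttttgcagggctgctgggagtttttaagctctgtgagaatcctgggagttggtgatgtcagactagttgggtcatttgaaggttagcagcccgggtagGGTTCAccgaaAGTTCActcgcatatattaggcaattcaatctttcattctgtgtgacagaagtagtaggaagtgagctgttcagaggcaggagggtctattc
CYP26A1: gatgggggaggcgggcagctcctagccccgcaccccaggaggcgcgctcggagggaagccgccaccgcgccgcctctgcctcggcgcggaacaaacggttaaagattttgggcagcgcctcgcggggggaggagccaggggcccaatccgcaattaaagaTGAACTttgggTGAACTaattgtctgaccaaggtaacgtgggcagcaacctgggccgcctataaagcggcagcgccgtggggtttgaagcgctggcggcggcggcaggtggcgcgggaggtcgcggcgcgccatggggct
The *RARB* repeat lies at bases -53 to -37 from the start, on the strand of the gene. The *CYP26A1* repeat lies at bases -90 to -74, and its half-sites read AGTTCA on the opposite strand. The *RARB* start is 1 of 4 in the table, and which start the 3′ counts came from was not analysed here. A match describes letters in this window and shows no binding.

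**Figure D3:**
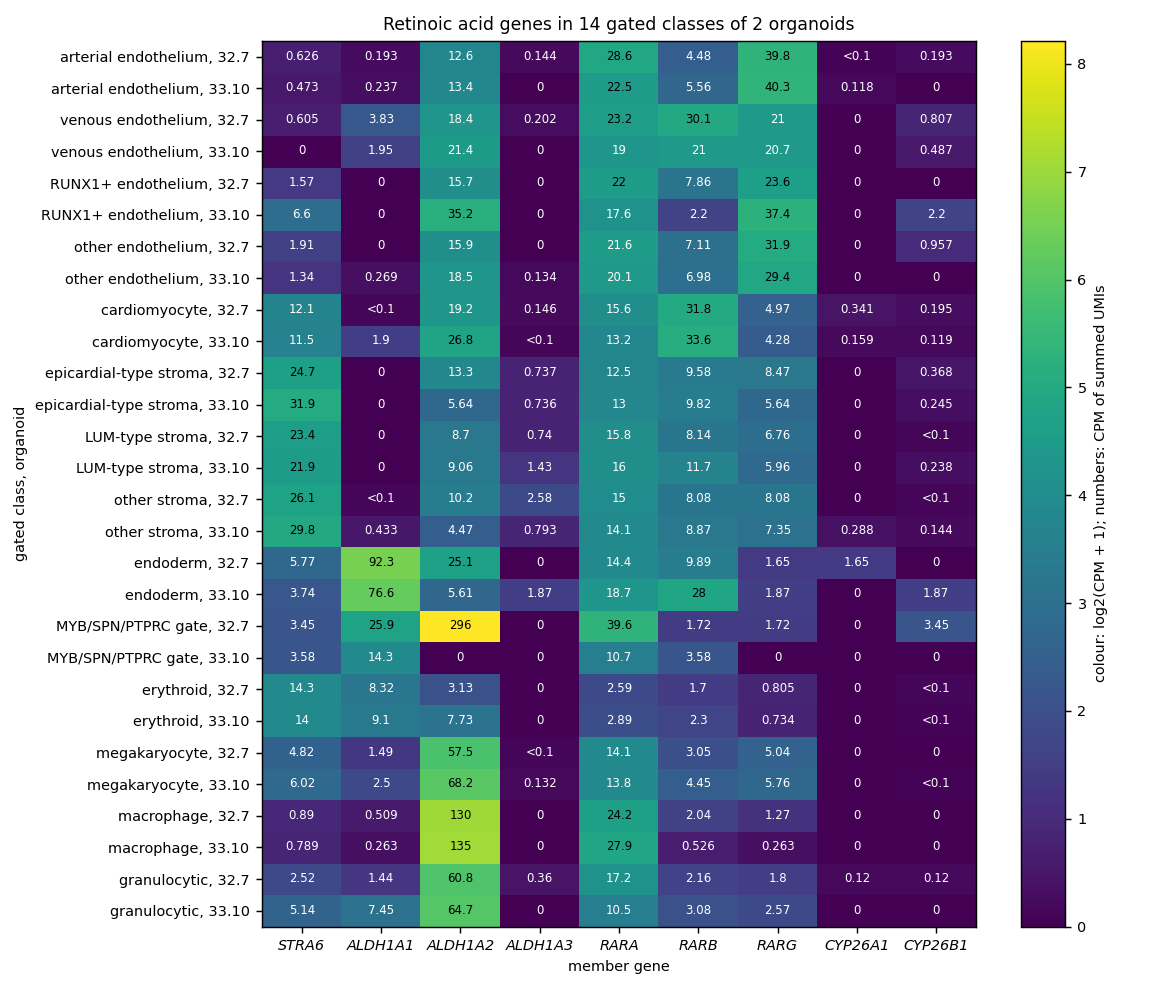
Levels of the 9 genes over the cell classes of both organoids, coloured by log2(CPM + 1) with the CPM written in each field. High classes that recur in both organoids are macrophages for *ALDH1A2*, endoderm for *ALDH1A1*, endothelium for *RARG* and stroma for *STRA6*. *CYP26A1* and *CYP26B1* are near 0 throughout. The *ALDH1A2* level of the *MYB*, *SPN* and *PTPRC* gate does not recur, with 296 CPM in organoid 32.7 and 0 in organoid 33.10.

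The differences between classes were tested over 20477 genes with the quasi-likelihood test of edgeR, its p-values adjusted by Benjamini-Hochberg, on UMIs summed per class and organoid. Counts of 13 classes in both organoids entered 1 fit, 8 of the 9 genes passed its filter, and comparisons that share a class are not independent of each other. Errors are approximate standard errors, taken as the size of the log2 fold change divided by the square root of the test's F statistic. The log2 fold changes compare shares of each class's RNA after TMM scaling.

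None of the 8 genes passed edgeR's test between epicardial-type and LUM-type stroma, where 6.43% of all genes did. *ALDH1A1*, with 0 UMIs in both classes, could not pass, and *CYP26B1* held 1 UMI in each sum. With so few genes, 0 calls cannot be told from that share. *RARA* alone had an unadjusted p under 0.05 in edgeR's test (0.0493), against 4610 of all 20477 genes, and DESeq2 called 0 of the 8. *ALDH1A2* had a log2 fold change of -0.15 ± 0.50 (adjusted p = 0.913), which leaves a sizeable difference possible. Of the fixed list of other pathway genes, 24 of 26 were tested and 5 were higher in epicardial-type stroma and 0 lower (median log2 fold change 0.14, against -0.02 for all genes). Among genes known to respond to retinoic acid, 17 of 22 were tested, 2 were higher and 4 lower (median -0.25). *RXRG*, a partner of the receptors, rose from 2.22 and 4.53 CPM in LUM-type to 25.4 and 31.9 CPM in epicardial-type stroma (log2 fold change 3.08, adjusted p = 4.78e-05). *RDH10*, which makes retinal, rose from 3.52 and 3.1 to 21.4 and 13.3 CPM (2.16, adjusted p = 0.000969). *LRAT*, which stores retinol as esters, rose from 0.925 and 0 to 5.53 and 2.45 CPM (adjusted p = 0.0414). *NR2F1*, an atrial transcription factor, was lower, at 4.79 and 6.63 against 23.8 and 26.2 CPM (-2.25, adjusted p = 0.017).

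AE and VE differed in 3 of the 8 genes, against 16.6% of all genes. *RARB* was lower in AE (log2 fold change -2.20 ± 0.29, adjusted p = 1.75e-05), and *RARG* higher (1.09 ± 0.20, adjusted p = 0.000735). *ALDH1A1* was lower in AE (-3.56 ± 1.08, adjusted p = 0.0315), but from 4 and 4 UMIs against 19 and 8, and 1 VE cell held 6 of them. Its call was lost when the gate was set per 10000 UMIs (adjusted p = 0.0539), with multi-lineage cells kept (0.0811) and at 3000 UMIs per cell (0.177), with log2 fold changes of -3.44, -3.46 and -3.34. The share of higher calls among all genes was 56.3% under TMM and 41% under DESeq2's size factors, which moved the median of all genes from 0.08 to -0.03. The directions of the *RARB* and *RARG* differences held under both. Of other pathway genes, 3 were higher and 1 lower (median 0.04, but 3 and 3 with a median of -0.07 under DESeq2). Of the response genes 2 were higher and 4 lower (median 0.07, against 0.08 for all genes, and -0.04 under DESeq2). *NR2F2*, the venous transcription factor, is left out of these counts because it set the gates. *NR2F1* was lower in AE, at 2.36 and 2.72 against 25.0 and 24.4 CPM (-3.13, adjusted p = 0.000162), as were *LRAT* (0.0963 and 0.237 against 1.61 and 3.17 CPM, adjusted p = 0.00201) and *HOXA3*, a pharyngeal patterning gene (0.0963 and 0 against 2.42 and 0.244 CPM, adjusted p = 0.00983). In organoid 33.10 the *HOXA3* level of VE lay below 0.731 CPM, the level of 3 UMIs in that sum.

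*RUNX1*+ endothelium, 27 and 25 cells, was compared with AE because haemogenic endothelium is held to arise from arterial-type cells. The *RUNX1* gate set no condition on arterial genes or on *NR2F2*, whose log2 fold change was 3.60. *RUNX1* status and arterial identity can therefore not be told apart here. None of the 8 genes passed, at 4.02% of all genes, and with 8 genes 0 calls cannot be told from that share. In edgeR's test 3 had an unadjusted p under 0.05: *RARG* (0.0118), *STRA6* (0.0163) and *RARA* (0.0348). Of all 20477 genes, 3912 did. DESeq2 called *STRA6* higher (log2 fold change 2.67, adjusted p = 0.034), on 1 and 3 UMIs. With multi-lineage cells kept (59 and 97 cells), edgeR called 3318 of 21078 genes. Among them *ALDH1A1* (6.11, adjusted p = 0.00106), *ALDH1A2* (1.22, adjusted p = 0.026) and *STRA6* (1.58, adjusted p = 0.0015) were higher and *RARG* lower (-1.27, adjusted p = 6.4e-05). All *ALDH1A1* UMIs of this wider class lay in cells that also carried a blood list, 27 UMIs in 2 cells and 54 UMIs in 10 cells. *STRA6* had 8.29 and 20.2 CPM in added cells with a cardiomyocyte, stroma or endoderm list, 1.59 and 1.67 with a blood list, and 1.57 and 6.6 in one-lineage cells. With a blood list, *RARG* had 14.3 and 10 CPM and *ALDH1A2* 71.4 and 33.5. One-lineage cells had 23.6 and 37.4 CPM of *RARG* and 15.7 and 35.2 of *ALDH1A2*. Doublets among the added cells were not called. Without multi-lineage cells the scaling mattered. With TMM 198 genes were higher and 625 lower (24.1% higher), and with DESeq2 604 and 61 (90.8% higher). The median of all genes moved from -0.30 to 0.04. Of the 24 other pathway genes tested, 0 passed edgeR's test and DESeq2 called 1. An unadjusted p under 0.05 in edgeR's test was found for 3 of them (*CRABP2*, *RDH14* and *NCOA2*), against 3912 of all 20477 genes. Of the response genes edgeR called *NR2F2*, a gate gene. DESeq2 called 3 response genes higher, and the fit with the organoid as a block called 1 higher and 1 lower.

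Cardiomyocytes and epicardial-type stroma differed in 3 of the 8 genes by edgeR, against 28.7% of all genes. DESeq2 called 3 higher in cardiomyocytes and 1 lower, and 5910 of all 20477 genes. *RARB* rose in cardiomyocytes (1.92 ± 0.30, adjusted p = 6.94e-05) and *STRA6* was lower (-1.10 ± 0.24, adjusted p = 0.00164). *ALDH1A2* was also higher in cardiomyocytes (1.53 ± 0.44, adjusted p = 0.0117), with log2 fold changes of 0.77 in organoid 32.7 and 2.41 in organoid 33.10 alone. That call was lost under the gate per 10000 UMIs (1.24, adjusted p = 0.125), without cycling cells (1.38, adjusted p = 0.0597) and at 3000 UMIs per cell (1.61, adjusted p = 0.0565). It was also lost after subtraction of an assumed 10% of each class's UMIs, spread as in the whole library (1.96, adjusted p = 0.0641). Of the other pathway genes, 5 were higher and 1 lower (median 0.18), and of the response genes 5 and 3 (median 0.33, against 0.04 for all genes). *TGM2*, a transglutaminase induced by retinoic acid, had 51.7 and 43.7 CPM in cardiomyocytes and 7.0 and 6.63 in epicardial-type stroma (2.98, adjusted p = 2.56e-07), and *RET*, a receptor tyrosine kinase, 0.634 and 0.951 against 11.1 and 10.3 CPM (-3.54, adjusted p = 4.23e-06). *NR2F2* was lower in cardiomyocytes (12.2 and 11.5 against 78.1 and 64.0 CPM, adjusted p = 1.63e-05) and *DHRS9*, a retinol dehydrogenase, higher (3.56 and 3.45 against 0.737 and 0.736 CPM, adjusted p = 0.0205).

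Endoderm and epicardial-type stroma differed in 3 of the 8 genes, against 24.1% of all genes. *ALDH1A1* was at least 83.2-fold and 104-fold higher in endoderm, with the floor of 3 counts set in each organoid's epicardial-type sum (adjusted p = 1.62e-05). *STRA6* was lower (-2.20 ± 0.38, adjusted p = 0.000274), as was *RARG* (-1.79 ± 0.52, adjusted p = 0.0163), whose call was lost under the gate per 10000 UMIs (-1.19, adjusted p = 0.18) and at 3000 UMIs per cell (-0.91, adjusted p = 0.681). *ALDH1A2* was not called (1.39 ± 0.55, adjusted p = 0.0737). Of the other pathway genes, 5 were higher and 4 lower (median 0.14), and of the response genes 3 and 4 (median -0.22, against -0.01 for all genes). *RBP4*, the plasma retinol carrier made by liver, had 1010 and 497 CPM in endoderm and 0.737 and 0.245 CPM (2 and 1 UMIs) in epicardial-type stroma (adjusted p = 1.03e-08). *RBP2*, a retinol-binding protein of the intestine, had 82.0 and 13.1 against 3.32 and 2.21 CPM (4.57, adjusted p = 1.99e-05). *RET* had 0 and 1.87 against 11.1 and 10.3 CPM (adjusted p = 0.0011). *ALDH1A1* and the retinol carrier were thus both high in endoderm.

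Granulocytic cells and macrophages differed in 3 of the 8 genes, against 21.0% of all genes. *ALDH1A2* was lower in granulocytic cells (-1.04 ± 0.34, adjusted p = 0.0319), as was *RARA* (-0.81 ± 0.21, adjusted p = 0.00707), and *STRA6* was higher (2.04 ± 0.48, adjusted p = 0.00426). None of the 3 calls held without cycling cells (adjusted p = 0.0688, 0.627 and 0.376, with *ALDH1A2* at -1.13, *RARA* at -0.29 and *STRA6* at 1.29). The *ALDH1A2* call was also lost with DESeq2 (-1.06, adjusted p = 0.066) and with the gate per 10000 UMIs (-1.15, adjusted p = 0.061). It was lost as well after subtraction of an assumed 10% of each class's UMIs, spread as in the whole library (-0.99, adjusted p = 0.23). At 3000 UMIs per cell the *RARA* and *STRA6* calls were lost too (-0.80 and 0.68, adjusted p = 0.144 and 0.796), and the *RARA* difference was -0.47 in organoid 32.7 and -1.35 in organoid 33.10. *ALDH1A1* was not called by edgeR (3.14 ± 1.16, adjusted p = 0.0661). DESeq2 called 2 of the 8 genes higher in granulocytic cells and 1 lower, and 4487 of all 20477 genes. Of the other pathway genes, 4 were higher in granulocytic cells and 6 lower (median 0.29), and of the response genes 3 and 3 (median 0.00, against 0.06 for all genes). *RXRA*, the main receptor partner in myeloid cells, was lower (38.3 and 22.1 against 93.9 and 119 CPM, -1.73, adjusted p = 4.3e-05), as was *DHRS3*, which turns retinal back into retinol (2.88 and 3.85 against 15.4 and 9.21 CPM, adjusted p = 0.0161). *MEIS2*, a homeobox gene, was higher (181 and 355 against 78.1 and 77.1 CPM, 1.80, adjusted p = 1.43e-06), as was *TBX5*, a cardiac transcription factor, at low levels (3.0 and 10.3 against 1.78 and 0.526 CPM, adjusted p = 0.018).

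Mk and erythroid cells differed in 5 of the 8 genes, against 53.2% of all genes. *ALDH1A2* was higher in Mk (3.04 ± 0.37, adjusted p = 1.32e-06), as were *RARG* (2.40 ± 0.29, adjusted p = 1.07e-06) and *RARA* (1.91 ± 0.22, adjusted p = 4.71e-07). *ALDH1A1* (-2.50 ± 0.62, adjusted p = 0.00283) and *STRA6* (-1.80 ± 0.24, adjusted p = 3.66e-06) were lower. All 5 calls held under every alternative run. In this comparison the uptake receptor and *ALDH1A1* were thus on the erythroid side, with *ALDH1A2* and the receptors *RARA* and *RARG* on the Mk side. Cells left out with erythroid and megakaryocyte as their leading lists had 53.8 and 39.6 CPM of *ALDH1A1*, more than either class. Erythroid cells had 8.32 and 9.1 CPM and Mk 1.49 and 2.5 CPM. That subset was chosen after the levels were seen. Of the other pathway genes, 6 were higher in Mk and 3 lower (median 0.22), and of the response genes 11 were higher and 1 lower (median 1.63, against 0.20 for all genes). *MEIS1*, a homeobox gene of Mk and blood progenitors, had 485 and 583 CPM in Mk and 14.8 and 30.3 in erythroid cells (4.12, adjusted p = 1.19e-10), and *HOXB5* 43.1 and 42.2 against 2.59 and 3.38 CPM (3.38, adjusted p = 4.4e-08). *TGM2* was the response gene that was lower in Mk, at 7.09 and 7.0 against 47.3 and 54.7 CPM (-3.29, adjusted p = 1.83e-09). *RET* had 1.35 and 1.29 CPM in Mk and 0.0895 and 0.147 CPM in erythroid cells (2.88, adjusted p = 0.00124).

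**Figure D4:**
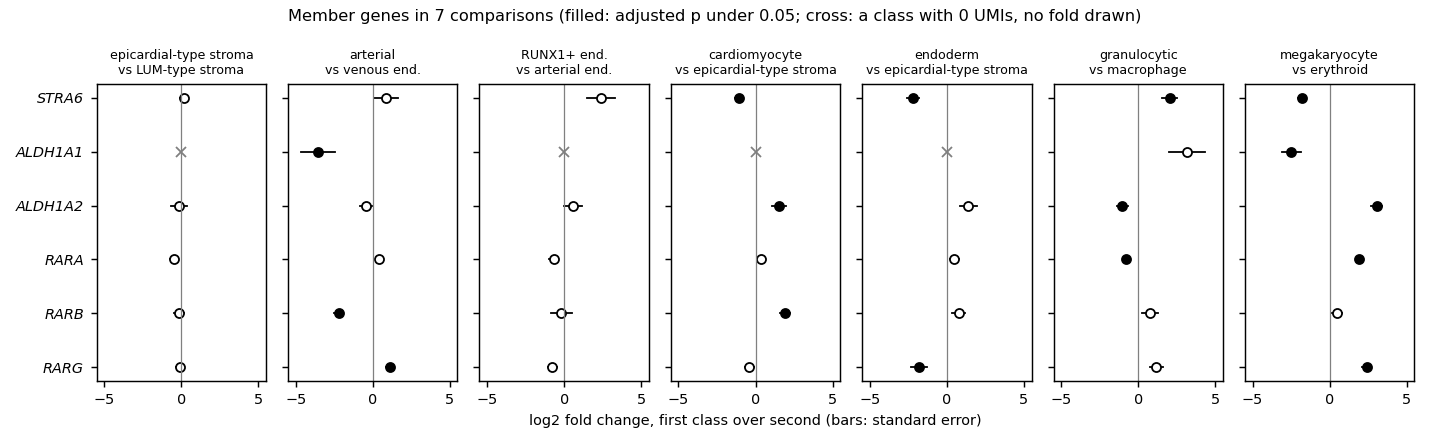
Log2 fold changes of 6 of the tested genes in the 7 comparisons, edgeR's quasi-likelihood estimates with bars of 1 approximate standard error. Filled points passed an adjusted p of 0.05, and a grey cross marks a comparison in which a class held 0 UMIs, with no fold drawn. *RARB* and *ALDH1A2* are higher in cardiomyocytes than in epicardial-type stroma (1.92 and 1.53), and 5 genes differ between Mk and erythroid cells.

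The share of each gene's UMIs that a class held followed these levels and the size of the class. Of the *ALDH1A2* UMIs, myeloid cells held 27.5% and 11% and Mk 14.6% and 37.5%, with more Mk captured in organoid 33.10 (3708 cells against 1416). Cardiomyocytes held 32.2% and 34.5% of the *RARB* UMIs. Stroma held 32.1% and 23.0% of the *STRA6* UMIs, less than cells with several lineage lists (37.7% and 42.4%). Those cells also held 31.8% and 33.7% of the *RARB* UMIs and 26.2% and 26.9% of the *ALDH1A2* UMIs. Of the *ALDH1A1* UMIs, endoderm held 33.9% in organoid 32.7 but 2.85% in organoid 33.10, where it had 23 cells. In organoid 33.10, 63.1% of *ALDH1A1* UMIs came from cells with several lineage lists, against 32.1% in organoid 32.7.

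**Figure D5:**
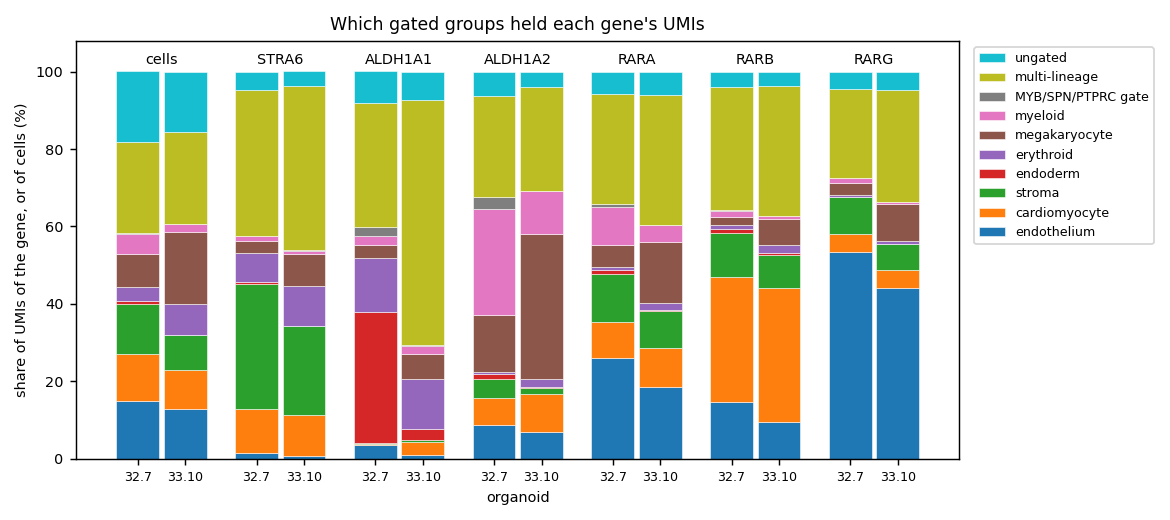
Share of each gene's UMIs held by each group of cells, with the share of all cells beside it, for both organoids (%). Endothelium holds 53.3% and 44.1% of *RARG* UMIs, and cells with several lineage lists hold 32.1% and 63.1% of *ALDH1A1* UMIs.

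Among cells with several lineage lists, the *ALDH1A1* level was higher where all the lists were of blood. These 283 and 690 cells had 28.4 and 53.0 CPM (94 and 472 UMIs), while the more numerous cells with another list (3658 and 4030) had 2.3 and 6.41 CPM (118 and 436 UMIs). No doublet caller was run, and doublets of blood cells and single cells with genes of several blood lineages cannot be told apart here. Among them, cells with at least 1 UMI of *HDC*, which makes histamine (43 and 193 cells), had 90.9 and 112 CPM of *ALDH1A1*, and those with 0 (240 and 497 cells) 3.39 and 10.3 CPM. The split also followed depth, with medians of 23502 and 16296 UMIs per cell with *HDC* and 5585 and 7840 without. The subsets were chosen after the levels were seen.

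The genes whose levels over the 13 classes and both organoids (26 points, which share library and class depth) were most like each member's are given as a description. For *ALDH1A1* they were *TF* (Pearson r = 0.92), *APOM* (0.87) and *AKR1C2* (0.87), and for *ALDH1A2* they were *TNFSF13B* (0.90), *GPAT3* (0.89) and *RAP1A* (0.89). *RARG* was most like *WWTR1*, *FAM171B* and *RAMP2* (0.97 each), and *RARB* most like *ZSWIM5* (0.90), *ZC4H2* (0.89) and *AC087521.2* (0.88). *RARA* was most like *ARF3* (0.93), *CMTM1* (0.92) and *TTYH3* (0.91), and *STRA6* most like *PKDCC* (0.94), *MXRA8* (0.93) and *TENM1* (0.91).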

How the data were processed

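Droplet RNA libraries from cells of 2 BG-HFOs, taken at day 14, were used. The deposited counts (raw UMI totals for each gene in each barcode) were made by the authors with Cell Ranger 7.0.0 on GRCh38, intronic reads included. They are not normalized, and precede the study's equalisation of depth and its removal of free RNA. Counts of free RNA or of read-sharing genes can therefore add to a level.

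Cells were kept if they had between 50 and 11000 genes and a mitochondrial share below 30%, the filter of the study. A cell entered 1 of 8 lineage gates with at least 5 UMIs from at least 2 genes of the list, and was left out as multi-lineage when another list held at least 3 UMIs and over 20% of its own sum. The lists were as follows. Cardiomyocyte: *MYH6*, *MYH7*, *ACTN2*, *MYL3* and *TNNT2*. Endothelial: *CDH5*, *CLDN5*, *ROBO4*, *ECSCR* and *PLVAP*. Stroma: *PDGFRA*, *PDGFRB*, *PRRX1*, *TWIST1*, *LUM*, *DCN*, *COL6A3*, *TCF21*, *WT1* and *TBX18*. Endoderm: *AFP*, *APOA2*, *FGA*, *FGB*, *TTR* and *ALB*. Erythroid: *GYPB*, *ALAS2*, *RHAG* and others. Megakaryocyte: *PF4*, *PPBP*, *GP9*, *ITGA2B* and *GP1BA*. Macrophage: *CD14*, *C1QA*, *C1QB*, *C1QC*, *CD163* and *MS4A7*. Granulocytic: *MPO*, *AZU1*, *PRTN3*, *ELANE*, *CLC*, *EPX* and *PRG2*. Endothelium was divided by *RUNX1* (at least 2 UMIs), and without it by *CXCR4*, *DLL4* and *SOX17* (at least 3 UMIs and 4 times *NR2F2*) or *NR2F2* (at least 2 UMIs and no fewer than those genes). Stroma was divided into epicardial-type (*WT1* and *TBX18*, at least 2 UMIs, *LUM* at most 1) and LUM-type (*LUM* at least 3, *WT1* and *TBX18* at 0). *TCF21* is both a gate and a check gene of stroma. No doublet caller was run, so doublets within a lineage remain.

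UMIs were summed per class and organoid. A class needed 20 or more cells in both organoids and was then fitted with edgeR 4.0.16 in R 4.3.3 (quasi-likelihood, TMM, filter by expression, Benjamini-Hochberg, threshold 0.05), and DESeq2 1.42.0 was an alternative. The fit was tested on simulated data. The *MYB*, *SPN* and *PTPRC* gate had 16 cells in organoid 33.10 and was not tested. Classes of 1 organoid are paired by the organoid: over 78 class pairs the deviations correlated at 0.00 to 0.32 (median 0.11, 41 pairs over 0.1), and the organoid as a block was an alternative. For shares, cells were thinned to 3000 UMIs, which left out 3824 and 3268 shallower cells.

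The members and lists were chosen with earlier results of these data known. Besides the 9 genes, a gene of the 2 fixed lists was named when it passed with a log2 fold change of at least 1 in size, at most 4 per comparison, and for each tested member with sufficient level the 3 genes with the highest Pearson r of log2(CPM + 1) among genes at 10 CPM or more in some class of both organoids. The pathway list included *RBP2*, *RBP4*, *RBP7*, *CRABP1*, *CRABP2*, *FABP5*, *LRAT*, *BCO1*, *RDH5*, *RDH10*, *RDH11*, *RDH13*, *RDH14*, *DHRS3*, *DHRS9*, *ALDH8A1*, *CYP26C1*, *RXRA*, *RXRB*, *RXRG*, *NCOR1*, *NCOA1*, *NCOA2* and *NCOA3*. The response list included *HOXB1*, *HOXA3*, *HOXB3*, *HOXA4*, *HOXB4*, *HOXA5*, *HOXB5*, *MEIS1*, *MEIS2*, *TBX5*, *NR2F1*, *NR2F2*, *TGM2*, *RARRES1*, *RARRES2*, *DHRS3*, *CRABP2*, *RET* and *CDX1*, with *CRABP2* and *DHRS3* among those on both. Some genes of these lists and of the erythroid gate are not reported here, but count in the gates and in the numbers of genes listed, tested and called. Gene positions are from GENCODE v44. Alternatives were the block, DESeq2, no filter on low counts, gates at 10 and at 3 UMIs, gates per 10000 UMIs, multi-lineage cells kept, cycling cells left out, a stricter cell filter (at least 1000 genes, under 15% mitochondrial), 10% of the library profile subtracted, cells thinned to 3000 UMIs, a stricter multi-lineage rule (10% of the own sum) and each organoid alone.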

Additional observations from a re-analysis of the deposited data

Results flagged for a closer look

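*ALDH1A1* was high in cells that the main comparisons left out. The cells with several lineage lists, all of blood, had 28.4 CPM in organoid 32.7 and 53.0 CPM in organoid 33.10, above the 3.47 and 6.22 CPM of all cells.

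*ALDH1A2* reached 296 CPM in the *MYB*, *SPN* and *PTPRC* gate of organoid 32.7, in 17 of 42 cells and with 43 UMIs in 1 of them, against 0 UMIs in the 16 cells of organoid 33.10. *S100A8* and *S100A9* stood at 4740 and 7200 CPM in that gate of organoid 32.7 and at 677 and 1300 CPM in organoid 33.10, and their part in the difference was not tested.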

How the results depend on the processing

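The 17 called member differences gave 201 values with a test under the alternatives. Of these, 184 kept direction and call, 17 lost the call and 0 reversed, and 11 differences kept the call throughout. From 1 organoid alone, 34 of 34 values had the same sign. They come from the same 2 organoids as the calls, so they are no separate support. One organoid alone moved *ALDH1A1* between AE and VE to -2.23 (33.10), *STRA6* between endoderm and epicardial-type stroma to -2.99 (33.10), *STRA6* between granulocytic cells and macrophages to 1.34 (32.7) and *ALDH1A2* between Mk and erythroid cells to 3.68 (32.7). Counts of calls have no value from 1 organoid, which leaves no residual degrees of freedom.

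Counts of called genes moved as follows, and where the construction does not show it the cause was not tested. Epicardial-type against LUM-type stroma gave 1317 calls, 2238 without the filter, 2812 with the organoid as a block (1210 higher and 1602 lower), 2428 with gates per 10000 UMIs and 805 at 3000 UMIs. AE against VE gave 3393, and 1933 at 3000 UMIs. *RUNX1*+ endothelium against AE gave 823, 1474 with the block (250 higher and 1224 lower), 3318 with multi-lineage cells kept, 98 without cycling cells, 352 with the stricter cell filter and 30 at 3000 UMIs. There the 0 member calls became 1 with DESeq2 (665 of 20477 genes called) and 4 with multi-lineage cells kept (3318 of 21078 genes called). Cardiomyocytes against epicardial-type stroma gave 5870, and 3338 at 3000 UMIs. Endoderm gave 4945, and 1472 at 3000 UMIs. Its 3 member calls became 5 with multi-lineage cells kept, where 5264 of 21078 genes were called. Granulocytic cells against macrophages gave 4302, 2763 without cycling cells and 2079 at 3000 UMIs, with 0 and 1 member calls instead of 3. Mk against erythroid cells gave 10895, and 7031 at 3000 UMIs. The block changed no member call. The *MYB*, *SPN* and *PTPRC* gate had 20 cells in both organoids only with gates per 10000 UMIs, where 9014 genes differed from AE. Endoderm fell under 20 cells without cycling cells, and *RUNX1*+ endothelium under the gates per 10000 UMIs and the stricter multi-lineage rule, so those values were not run.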

Other observations

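*RUNX1*+ endothelial cells that also carried a blood list held *ALDH1A1*, while those with 1 lineage held 0 UMIs. In organoid 32.7, 19 such cells had 42.9 CPM (27 UMIs in 2 cells), and in organoid 33.10, 54 cells had 30.1 CPM (54 UMIs in 10 cells). *HDC* was found in 3 and 12 of these cells. Where the second list was cardiomyocyte, stroma or endoderm (13 and 18 cells), *ALDH1A1* held 0 UMIs. The split was made after the values were seen.

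*CRABP2*, which carries retinoic acid to its receptors, had 349 and 265 CPM in cardiomyocytes and 352 and 249 CPM in epicardial-type stroma, against 7.08 and 6.51 CPM in AE.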
